A study of Mus musculus with 6 samples.

Results

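The genes described here are 41 nuclear genes for subunits of respiratory chain complexes I, II and III, taken from a list by name out of 21853 protein-coding genes with an annotated transcription start site (TSS). The list holds 30 complex I subunits, of which 6 are core subunits and 24 are supernumerary, 4 complex II subunits, 6 complex III subunits and Ndufa4. A gene was scored as open in a library when an ATAC-seq peak lay within 1 kb of the TSS of one of its protein-coding transcripts. Peaks from chromatin immunoprecipitation of the transcription factor Tfcp2l1 were searched within 100 kb of the same start sites.

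Complex I takes electrons from NADH, and complex II, which is also an enzyme of the tricarboxylic acid cycle, takes them from succinate. Both pass them to ubiquinone, from which complex III transfers them to cytochrome c. Complexes I and III pump protons across the inner mitochondrial membrane as they do so, and complex II does not. Most subunits are encoded in the nucleus and imported, whereas several hydrophobic subunits of complex I and cytochrome b of complex III are encoded in the mitochondrial genome. In low oxygen, cells are known to lower respiration through the hypoxia-inducible factors (HIF), among others by shifting subunits and by inactivating pyruvate dehydrogenase.

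The cells were mouse embryonic fibroblasts (MEFs) of C57BL/6J embryos, for ATAC-seq taken on embryonic day 13.5, with no genetic alteration or drug named in the labels. The ATAC-seq libraries were from MEFs immortalized in 3% oxygen (Hyp-Imm), MEFs at passage 1 in 3% oxygen (Hyp-Pro), MEFs grown to senescence in 20% oxygen (Norm-Sen) and MEFs at passage 1 in 20% oxygen (Norm-Pro). The ChIP-seq libraries were from immortalized MEFs in 3% oxygen and senescent MEFs in 20% oxygen. There was 1 library per condition, so no replicate error exists, no test between conditions was made, and every difference below is a difference between single libraries.

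Depth and labelling limited what could be compared. The libraries held 37770 peaks in Hyp-Imm, 47523 in Hyp-Pro, 61408 in Norm-Sen and 69122 in Norm-Pro, and the most frequent background pileup under their peaks was 0.445, 0.956, 1.77 and 1.24 tags in the same order. By that measure Hyp-Imm had 25.2% of the background of Norm-Sen. The names of the deposited files disagree with the sample labels for all 4 ATAC-seq libraries: the library labelled Hyp-Imm is named Norm-Sen in its file, Hyp-Pro is named Norm-Pro, Norm-Sen is named Hyp-Pro and Norm-Pro is named Hyp-Imm. Labels were used, and values by the file names are given where they turn a result round. The share of peaks on chromosome X was 1.44% in Hyp-Imm, 4.76% in Hyp-Pro, 4.44% in Norm-Sen and 1.08% in Norm-Pro. Each comparison of libraries by label below crosses this split. By the file names the comparisons of oxygen levels do not cross it, and those of time in culture do. None of the 41 genes is on chromosome X, and its part in the results was not tested. Of 10 fibroblast markers, 4 were open in Hyp-Imm, 6 in Hyp-Pro, 7 in Norm-Sen and 6 in Norm-Pro. Vim, Fn1, Twist1 and Col1a2 were open in all 4 libraries, and Col3a1 and Prrx1 in none. Epithelial markers were open in 1, 2, 1 and 2 of 5 cases in that order of libraries, endothelial markers in 1, 2, 2 and 2 of 4, and blood markers in 2, 0, 1 and 1 of 4, with no peak at Ptprc.

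Promoters of the respiratory chain were open in most libraries, and least often in Hyp-Imm. In Hyp-Imm 17 of the 41 genes were open (41.5%, 95% exact Clopper-Pearson interval 26.3 to 57.9), beside 34.2% of all protein-coding genes. In Hyp-Pro 30 were open (73.2%, 57.1 to 85.8), beside 48.1% of all genes. In Norm-Sen 37 were open (90.2%, 76.9 to 97.3), beside 51.6% of all genes, and in Norm-Pro 35 (85.4%, 70.8 to 94.4), beside 53.4%. The intervals cover counting error only, and for these shares they lie above the share of all genes in Hyp-Pro, Norm-Sen and Norm-Pro and include it in Hyp-Imm. By the file names the library with 17 open genes is the senescent one in 20% oxygen.

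**Figure D1:**
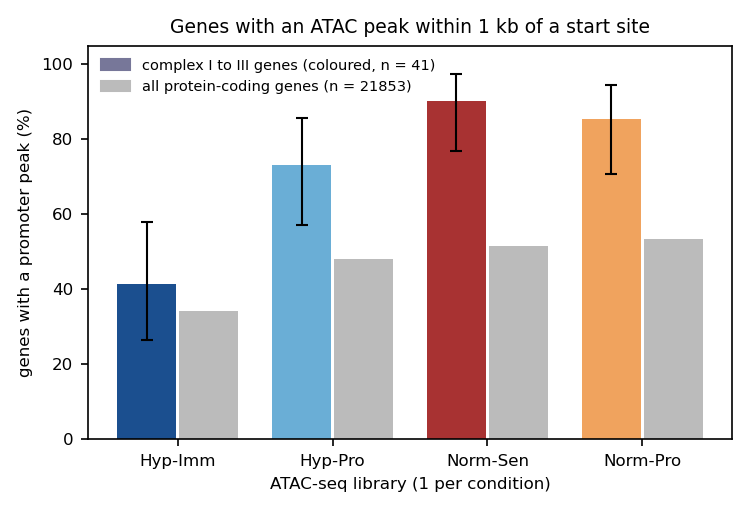
Share of genes with an ATAC-seq peak within 1 kb of a TSS (y axis, percent) in the 4 libraries (x axis), for the 41 complex I to III genes (coloured bars, lines are 95% exact Clopper-Pearson intervals) and all 21853 protein-coding genes (grey bars). The coloured bars run from 41.5% in Hyp-Imm to 90.2% in Norm-Sen, whereas the grey bars lie between 34.2% and 53.4%.

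No gene of the list was without a promoter peak everywhere. All 4 libraries had a peak at 12 genes (29.3%, beside 25.8% of all genes) and 3 libraries at 17 genes (41.5%, beside 16.5%). Peaks in 2 libraries were found at 8 genes (19.5%, beside 10.9%) and in 1 library at 4 genes (9.76%, beside 12.8%). Of all protein-coding genes, 34.0% had no promoter peak in any library. They are counted in the shares of all genes in this paragraph, so the bases of the shares differ. The genes open in all 4 libraries came from every complex and were Ndufa5, Ndufa11, Ndufb2, Ndufb5, Ndufs8, Ndufv2 and Ndufv3 of complex I, Sdhb and Sdhc of complex II, Uqcrc1 and Uqcrc2 of complex III, and Ndufa4. The most frequent other pattern was a peak in every library but Hyp-Imm, found at 12 genes (29.3%, beside 12.0% of all genes).

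**Figure D2:**
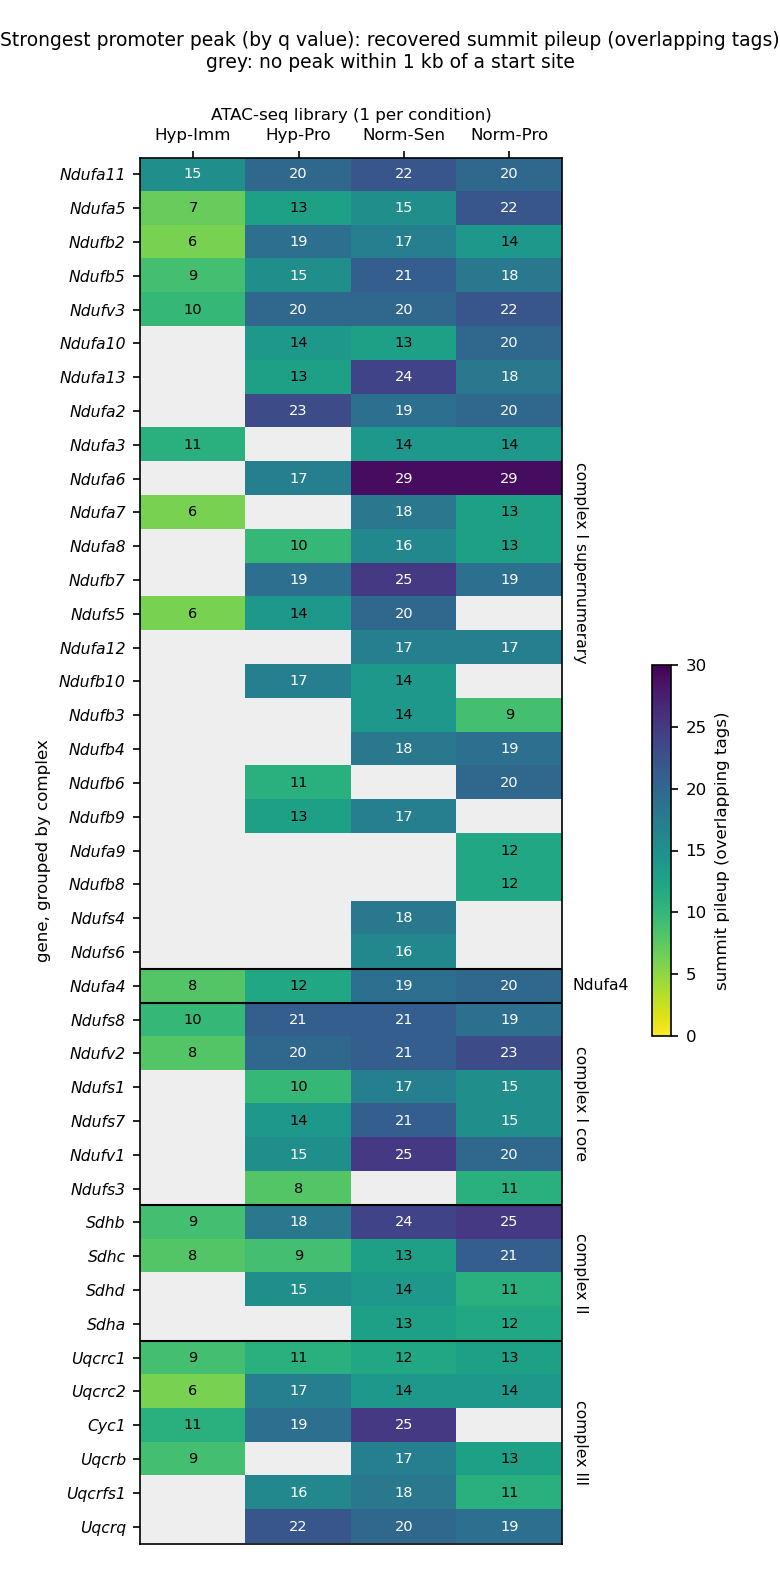
Summit pileup of the strongest promoter peak by q value, in overlapping tags (number and colour), for the 41 genes (rows, grouped by complex) in the 4 ATAC-seq libraries (columns); grey cells had no peak within 1 kb of a TSS. The Hyp-Imm column has 24 grey cells and the Norm-Sen column 4, and pileups in Hyp-Imm run from 6 to 15.

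The sequences upstream of 5 of these genes are shown because they stand alone, with no other protein-coding TSS within 1 kb, and represent both frequent patterns. They are RefSeq promoter bases on GRCm38.p6 on the strand of the gene, from 250 bases before the TSS up to the TSS or to the first annotated exon. Capitals mark exact matches, on either strand, to CCAAT, the Sp motif GGGCGG, the cyclic AMP response element (CRE) motif TGACGTC or the NRF1 motif GCGCATG. The ETS, YY1 and hypoxia response motifs named in the next paragraphs were searched too and have no match in these stretches. Ndufv2 (chr17:66101560-66101809, minus strand), Ndufs8 (chr19:3912775-3913024, minus strand) and Ndufb2 (chr6:39592315-39592564, plus strand) were open in all 4 libraries. Ndufa6 (chr15:82354323-82354541, minus strand) and Uqcrfs1 (chr13:30545363-30545566, minus strand) lacked a peak only in Hyp-Imm.
Ndufv2: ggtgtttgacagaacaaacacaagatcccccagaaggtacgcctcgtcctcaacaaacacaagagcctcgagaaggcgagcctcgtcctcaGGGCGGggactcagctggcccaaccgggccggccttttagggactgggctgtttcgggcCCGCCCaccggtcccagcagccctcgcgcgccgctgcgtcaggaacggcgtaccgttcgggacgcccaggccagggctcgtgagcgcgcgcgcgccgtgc
Ndufs8: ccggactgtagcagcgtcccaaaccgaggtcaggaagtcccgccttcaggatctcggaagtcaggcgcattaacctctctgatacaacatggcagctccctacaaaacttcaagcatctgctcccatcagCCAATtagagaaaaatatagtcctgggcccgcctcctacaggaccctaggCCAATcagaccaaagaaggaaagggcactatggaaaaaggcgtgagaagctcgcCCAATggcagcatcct
Ndufb2: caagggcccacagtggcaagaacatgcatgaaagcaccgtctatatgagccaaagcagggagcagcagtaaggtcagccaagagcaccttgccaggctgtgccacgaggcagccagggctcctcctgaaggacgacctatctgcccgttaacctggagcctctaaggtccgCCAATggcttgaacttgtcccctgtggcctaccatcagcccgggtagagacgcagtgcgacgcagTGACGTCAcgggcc
Ndufa6: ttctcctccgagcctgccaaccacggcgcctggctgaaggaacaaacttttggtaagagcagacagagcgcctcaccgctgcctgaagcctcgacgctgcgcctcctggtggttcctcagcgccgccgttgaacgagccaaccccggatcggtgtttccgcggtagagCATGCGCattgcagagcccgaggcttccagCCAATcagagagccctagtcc
Uqcrfs1: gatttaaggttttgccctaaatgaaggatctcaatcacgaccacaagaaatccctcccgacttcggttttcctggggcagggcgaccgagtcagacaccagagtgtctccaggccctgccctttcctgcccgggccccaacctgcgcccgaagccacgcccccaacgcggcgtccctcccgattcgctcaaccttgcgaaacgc

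These stretches differ in their GC content and in their motifs. Ndufv2 has a GC content of 68.0% with Sp matches at -159 and -100, and Ndufs8 has 53.2% with CCAAT at -120, -70 and -16. Ndufb2 carries CCAAT at -79 and a palindromic CRE that starts at -14, whereas Ndufa6 carries an NRF1 match at -82 and CCAAT at -52. The stretch of Uqcrfs1 holds none of the motifs searched. Positions count from the TSS and give the most upstream base of the match.

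RefSeq promoter bases were found for 33 of the 41 genes, and 8 genes had no entry (Cyc1, Ndufa2, Ndufb9, Ndufs1, Sdhc, Uqcrb, Uqcrc2 and Uqcrq). In the 250 bases before the TSS their median GC content was 57.6% with a median of 16 CG pairs, against 52.0% and 5 over 27025 promoters of the same length. Those 27025 were not limited to protein-coding genes, and the entry with the lowest coordinate stood for each gene symbol. For the genes of the list the entry nearest an annotated TSS was used. The shares of all in this paragraph refer to that unlike set, so the contrasts are descriptive. Genes open in all 4 libraries had a median of 58.4% GC and 12 CG pairs (n = 10), and genes missing only in Hyp-Imm 62.4% and 18 (n = 9). The NRF1 motif GCGCATG stood in 5 of 33 promoters (15.2%, interval 5.11 to 31.9, beside 3.28% of all), those of Ndufa6, Ndufa8, Ndufa11, Ndufb6 and Sdhb. Nuclear respiratory factor 1 is a known activator of respiratory chain genes. The CRE motif TGACGTC stood in 5 (15.2%, beside 2.79% of all), in Ndufa5, Ndufa10, Ndufa11, Ndufb2 and Uqcrfs1. In Uqcrfs1 the match lies in the bases next to the TSS that are not printed above. The ETS motif CCGGAAG, bound by the GABP factor among others, stood in 4 (12.1%, beside 7.14%), GGGCGG in 13 (39.4%, beside 32.7%) and CCAAT in 10 (30.3%, beside 34.2%). The core of the hypoxia response element, ACGTG, stood in 4 (12.1%, beside 16.4%), in Ndufa3, Ndufa7, Ndufv1 and Sdha. The YY1 motif AAGATGG stood in 0 of 33, which allows up to 10.6% by the exact interval, beside 4.50% of all. A match is a match of letters, not a site shown to be bound.

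The 6 core subunits of complex I, which hold the electron path within the matrix arm, were open in 2 cases in Hyp-Imm, 6 in Hyp-Pro, 5 in Norm-Sen and 6 in Norm-Pro. The measure given for each peak is its summit pileup, the number of tags stacked at the summit, recovered from the deposited fold and p-value. In each library it is that of the strongest peak by q value, so the values of a gene can come from peaks that do not overlap. Ndufv2, an iron-sulfur subunit of the NADH-oxidizing module, had pileups of 8 tags in Hyp-Imm, 20 in Hyp-Pro, 21 in Norm-Sen and 23 in Norm-Pro. Ndufs8, which carries iron-sulfur clusters near the quinone site, had 10, 21, 21 and 19 tags in the same order of libraries. Both were lowest in Hyp-Imm, where the median over all open promoters was also lower, at 9 tags against 15 in Hyp-Pro, 19 in Norm-Sen and 17 in Norm-Pro. Ndufv1, the subunit that binds NADH and flavin, had no peak in Hyp-Imm and 15 tags in Hyp-Pro, 25 in Norm-Sen and 20 in Norm-Pro. Ndufs7, an iron-sulfur subunit at the quinone site, had none in Hyp-Imm and 14, 21 and 15 tags in the others, and Ndufs1, the largest iron-sulfur subunit, had none in Hyp-Imm and 10, 17 and 15. The strongest peaks of Ndufs1 in these libraries did not overlap each other, and the TSS of Eef1b2 lies within 1 kb. Ndufs3 was open only at passage 1, with 8 tags in Hyp-Pro and 11 in Norm-Pro, both low for their libraries. Its peaks in Hyp-Pro and Norm-Pro did not overlap, and the TSS of Kbtbd4 lies within 1 kb. By the file names these libraries are Norm-Pro and Hyp-Imm, so Ndufs3 is then not confined to passage 1. Its mean rank by q value within the libraries, 31.6 on a scale to 100, was the lowest of the 41 genes.

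Supernumerary subunits surround the core and are needed for assembly and stability. Of the 24, 8 were open in Hyp-Imm, 15 in Hyp-Pro, 21 in Norm-Sen and 19 in Norm-Pro. Ndufv3 had 10 tags in Hyp-Imm, 20 in Hyp-Pro, 20 in Norm-Sen and 22 in Norm-Pro, Ndufb5 had 9, 15, 21 and 18, and Ndufa11, a membrane arm subunit, had 15, 20, 22 and 20. Ndufa11 had the highest pileup of the 41 genes in Hyp-Imm, but its peaks in Hyp-Imm, Hyp-Pro and Norm-Sen lay 591 to 699 bases upstream of its TSS and the TSS of Vmac lies within 1 kb. Ndufa5 had 7, 13, 15 and 22 tags, and Ndufb2 had 6, 19, 17 and 14. The Hyp-Imm peak of Ndufa5 lay 533 bases upstream of the TSS and overlapped none of its peaks in the other libraries. The TSS of Asb15 lies within 1 kb of that of Ndufa5.

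The strongest promoters that lacked a peak only in Hyp-Imm included several of the highest in the other libraries. Ndufa6, a LYR-motif subunit that binds the mitochondrial acyl carrier protein, had 17 tags in Hyp-Pro, 29 in Norm-Sen and 29 in Norm-Pro. Both values of 29 were the highest of the 41 genes in their libraries, labelled 20% oxygen but 3% oxygen by the file names. Ndufa2 had 23, 19 and 20 tags in the same 3 libraries, the highest of the 41 in Hyp-Pro, and it shares its promoter window with the TSS of Ik. Ndufb7, a subunit held by disulfide bonds on the intermembrane side, had 19, 25 and 19 tags. Ndufa10 had 14, 13 and 20, Ndufa8 had 10, 16 and 13, and Ndufa13, also known as GRIM-19, had 13, 24 and 18. None of these 6 genes had a peak in Hyp-Imm at the deposited threshold.

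Other supernumerary genes were absent from other libraries. Ndufa3 lacked a peak only in Hyp-Pro and had 11 tags in Hyp-Imm, 14 in Norm-Sen and 14 in Norm-Pro. Ndufa7 had the same pattern with 6, 18 and 13 tags, next to the TSS of Rps28. Ndufs5 lacked a peak only in Norm-Pro, with 6 tags in Hyp-Imm, 14 in Hyp-Pro and 20 in Norm-Sen. A gap in 1 library was therefore not limited to the shallowest one.

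Peaks in both 20% oxygen libraries and in neither 3% oxygen library were found at 4 genes (9.76%, beside 4.15% of all genes), Ndufa12, Ndufb3, Ndufb4 and Sdha. The share of all genes also counts genes open in no library, which the list lacks. The libraries labelled 20% oxygen are also those with the most peaks, 61408 in Norm-Sen and 69122 in Norm-Pro. Ndufb4, which has no other protein-coding TSS within 1 kb, had 18 tags in Norm-Sen and 19 in Norm-Pro. Ndufa12 had 17 and 17 tags, Ndufb3 had 14 and 9, and Sdha had 13 and 12 in the same order. The converse pattern, peaks in both 3% oxygen libraries alone, had 0 of the 41 genes, beside 0.503% of all genes. By the file names the libraries Hyp-Imm and Hyp-Pro of the labels are the 20% oxygen pair, so the oxygen level of these 4 genes turns round with the file names.

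The remaining complex I genes were open in 1 or 2 libraries. Ndufb10 had 17 tags in Hyp-Pro and 14 in Norm-Sen, Ndufb9 had 13 and 17 in those libraries, and Ndufb6 had 11 in Hyp-Pro and 20 in Norm-Pro. Ndufs4, a late-assembled subunit whose loss in mice gives a fatal encephalopathy, was open only in Norm-Sen with 18 tags, and Ndufs6, a zinc-binding subunit, only in Norm-Sen with 16 tags and with the TSS of Mrpl36 within 1 kb. Ndufa9 and Ndufb8 were open only in Norm-Pro, each with 12 tags, below that library's median of 17 over all open promoters.

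Ndufa4 was first assigned to complex I and is now regarded as a subunit linked to complex IV, where a paralogue, Ndufa4l2, replaces it in low oxygen. It was open in all 4 libraries with 8 tags in Hyp-Imm, 12 in Hyp-Pro, 19 in Norm-Sen and 20 in Norm-Pro, 259 to 303 bases upstream of the nearest start site and within 1 kb of the TSS of Phf14. Ndufa4l2 had no promoter peak in any library.

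Complex II was open at 2 of its 4 genes in Hyp-Imm, 3 in Hyp-Pro, 4 in Norm-Sen and 4 in Norm-Pro. Sdhb, the iron-sulfur subunit, had 9 tags in Hyp-Imm, 18 in Hyp-Pro, 24 in Norm-Sen and 25 in Norm-Pro. Sdhc, a membrane anchor, had 8, 9, 13 and 21 tags. Sdhd, the other anchor, which shares its window with the TSS of Timm8b, lacked a peak only in Hyp-Imm and had 15, 14 and 11 in the other libraries. Sdha, the flavoprotein that oxidizes succinate, was the one complex II gene with no peak in either 3% oxygen library.

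Complex III was open at 4 of 6 genes in Hyp-Imm, 5 in Hyp-Pro, 6 in Norm-Sen and 5 in Norm-Pro. The core proteins Uqcrc1 and Uqcrc2 were open throughout, Uqcrc1 with 9 tags in Hyp-Imm, 11 in Hyp-Pro, 12 in Norm-Sen and 13 in Norm-Pro and Uqcrc2 with 6, 17, 14 and 14. The Hyp-Imm peak of Uqcrc2 lay 676 bases upstream of the TSS and did not overlap its strongest peak in any other library. Cyc1, cytochrome c1, had 11 tags in Hyp-Imm, 19 in Hyp-Pro and 25 in Norm-Sen and no peak in Norm-Pro, the library with the most peaks. Uqcrfs1, the Rieske iron-sulfur protein, had no peak in Hyp-Imm and 16, 18 and 11 tags in the others, and Uqcrq had none in Hyp-Imm and 22, 20 and 19. Uqcrb had 9 tags in Hyp-Imm, 17 in Norm-Sen and 13 in Norm-Pro and no peak in Hyp-Pro.

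At passage 1, gaps between the oxygen levels ran in both directions. Of the 30 genes open in Hyp-Pro, 4 had no peak in Norm-Pro (13.3%, interval 3.76 to 30.7, beside 13.0% of all genes), namely Cyc1, Ndufb9, Ndufb10 and Ndufs5. Of the 35 open in Norm-Pro, 9 had no peak in Hyp-Pro (25.7%, 12.5 to 43.3, beside 21.5% of all genes). Both shares were near those of all genes, and 26 genes were open in both libraries. By the file names the larger count is on the other side, with 9 of 37 genes open in Hyp-Pro and not in Norm-Pro (24.3%, beside 20.9% of all genes) and 2 of 30 the other way (6.67%, beside 15.3%).

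In late culture most gaps were in Hyp-Imm. Of the 17 genes open in Hyp-Imm, 0 lacked a peak in Norm-Sen (interval 0 to 19.5%, which holds the 13.7% of all genes). This count became 2 with equal numbers of peaks, 2 at a -log10 q of at least 5 and 3 when only overlapping peaks counted as shared. Of the 37 open in Norm-Sen, 20 had no peak in Hyp-Imm (54.1%, 36.9 to 70.5, beside 42.9% of all genes), an interval that holds the share of all genes. By the file names the 2 libraries of this comparison change, and the counts turn round, with 20 of 35 genes open in Hyp-Imm and not in Norm-Sen (57.1%, beside 43.4% of all genes) and 2 of 17 the other way (11.8%, beside 11.5%).

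With time in culture, the counts in 20% oxygen were small in both directions and those in 3% oxygen were again on the side of Hyp-Imm. Of the 37 genes open in Norm-Sen, 6 had no peak in Norm-Pro (16.2%, 6.19 to 32.0, beside 14.6% of all genes), and of the 35 open in Norm-Pro, 4 had none in Norm-Sen (11.4%, 3.20 to 26.7, beside 17.5%). Of the 17 open in Hyp-Imm, 3 had no peak in Hyp-Pro (17.6%, 3.80 to 43.4, beside 16.2% of all genes), which were Ndufa3, Ndufa7 and Uqcrb. Of the 30 open in Hyp-Pro, 16 had none in Hyp-Imm (53.3%, 34.3 to 71.7, beside 40.5%). By the file names the uneven pair is that in 20% oxygen, with 3 of 17 genes open in Norm-Sen and not in Norm-Pro (17.6%, beside 16.2% of all genes) and 16 of 30 the other way (53.3%, beside 40.5%). The 3% oxygen pair then has 4 of 35 genes open in Hyp-Imm and not in Hyp-Pro (11.4%, beside 17.5%) and 6 of 37 the other way (16.2%, beside 14.6%).

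These gaps were set beside the depth of the libraries. With the same number of peaks taken from each library, highest q first, the open genes numbered 17 in Hyp-Imm, 28 in Hyp-Pro, 34 in Norm-Sen and 34 in Norm-Pro, beside 34.2%, 44.4%, 44.5% and 47.1% of all genes in the same order. At equal numbers 19 of the 34 open in Norm-Sen had none in Hyp-Imm (55.9%, beside 38.4% of all genes). At a -log10 q of at least 5 only 4 genes were open in Hyp-Imm (9.76%, beside 11.3% of all genes), Ndufa3, Ndufa11, Ndufb5 and Uqcrb. In Norm-Sen 26 were open (63.4%, beside 31.7%), of which 24 had no peak in Hyp-Imm (92.3%, beside 70.1%). The other way it was 2 of 4 (50%, beside 16%). Of the 22 open in Hyp-Pro at that threshold, 20 had none in Hyp-Imm (90.9%, beside 68.3%). The other way it was again 2 of 4 (50%, beside 17.6%). No interval was computed for these shares. Among the 23 genes with no other protein-coding TSS within 1 kb, 9 were open in Hyp-Imm, 17 in Hyp-Pro, 20 in Norm-Sen and 19 in Norm-Pro, beside 31.2%, 44.3%, 47.6% and 49.3% of the 19057 genes without such a neighbour. Of the 20 open in Norm-Sen, 11 had none in Hyp-Imm, beside 44.7% of all such genes open in Norm-Sen.

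The height of a peak in Norm-Sen was also related to its absence in Hyp-Imm. Over all genes, 64.2% of promoters with 12 to 15 tags in Norm-Sen had no peak in Hyp-Imm, 50.1% of those with 16 to 20 tags and 24.5% of those with 21 to 29 tags. For complex I to III genes the counts were 5 of 10 (50%, interval 18.7 to 81.3), 10 of 16 (62.5%, 35.4 to 84.8) and 5 of 11 (45.5%, 16.7 to 76.6). Each interval holds the share of all genes in its band. The 5 genes of the top band were Ndufa6, Ndufa13, Ndufb7, Ndufs7 and Ndufv1.

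**Figure D3:**
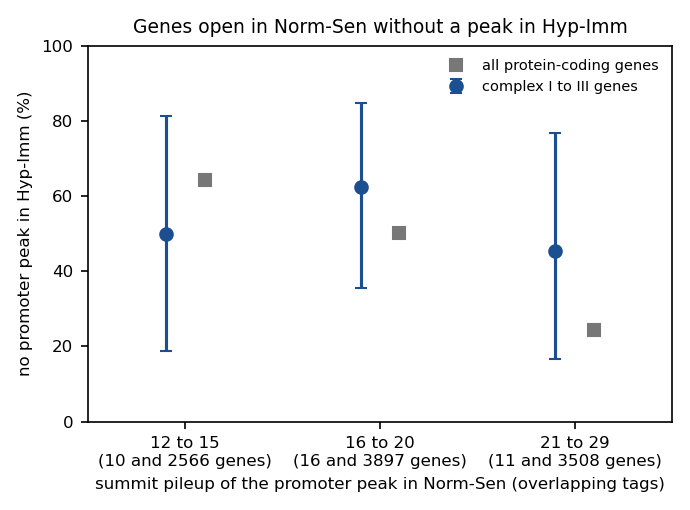
Share of genes with a promoter peak in Norm-Sen that had none in Hyp-Imm (y axis, percent) by the summit pileup in Norm-Sen (x axis, overlapping tags), for complex I to III genes (circles, lines are 95% exact Clopper-Pearson intervals) and all protein-coding genes (squares). The squares run from 64.2% in the lowest band to 24.5% in the highest, and the circles lie at 50%, 62.5% and 45.5% with intervals that hold the squares.

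For each gene without a peak the pileup that the other library would give was computed, scaled by the median ratio of all promoters open in both libraries. The 20 genes open in Norm-Sen and not in Hyp-Imm would have had 6.07 to 13.5 tags in Hyp-Imm, with a median of 8.17, where the lowest called promoter had 4 tags and the first quartile of called promoters was 8. Of the 20, 10 would have been below that quartile. Ndufa6 had the highest of these values, 13.5 tags, followed by Ndufb7 and Ndufv1 with 11.7 each and Ndufa13 with 11.2. Scaled by the background of the libraries instead, the 20 values ran from 3.27 to 7.30 tags, and 5 were below the lowest called promoter. The 2 scales so gave different readings of how many peaks could have been called at this depth, and peak lists alone do not separate a closed promoter from one that was not sampled.

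For the 6 genes open in Norm-Sen and not in Norm-Pro the same scaling gave 12.8 to 22.8 tags in Norm-Pro, where the first quartile of called promoters was 14. Cyc1 had the highest value, 22.8 tags, and would by this measure have stood above the library's median of 17. For the 3 genes open in Hyp-Imm and not in Hyp-Pro, the values in Hyp-Pro were 18.7 tags for Ndufa3, 15.3 for Uqcrb and 10.2 for Ndufa7, where the median of called promoters was 15 and the first quartile 12. The 9 genes open in Norm-Pro and not in Hyp-Pro had values of 7.62 to 16.1 tags in Hyp-Pro, 7 of them below that quartile. The 4 genes open in Hyp-Pro and not in Norm-Pro had 15.4 to 22.5 tags in Norm-Pro, none below its first quartile of 14.

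Where both libraries of a pair had a peak, the heights were compared. Each height was that of the strongest peak of the library, so the peaks of a ratio did not always overlap. After scaling by all promoters open in both libraries, the median log2 ratio of pileups in Hyp-Pro over Norm-Pro was -0.01 over 26 genes (range -0.98 to 0.78), and the genes at the ends were Sdhc with 9 tags in Hyp-Pro against 21 in Norm-Pro and Uqcrfs1 with 16 against 11. In Hyp-Imm over Norm-Sen it was -0.08 over 17 genes (-0.64 to 0.75), with Ndufs5 at 6 tags against 20 and Ndufa3 at 11 against 14. In Norm-Sen over Norm-Pro it was -0.02 over 31 genes (-0.82 to 0.58), again with Sdhc, 13 tags against 21, and Uqcrfs1, 18 against 11, at the ends. In Hyp-Imm over Hyp-Pro it was -0.18 over 14 genes (-0.90 to 0.60), with Ndufb2 at 6 tags against 19 and Sdhc at 8 against 9. The peaks of Sdhc in that pair did not overlap, so its ratio is not one of the same region.

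Under this scaling 0 genes of the list were 2-fold or more higher or lower in each of the 4 pairs. Over all genes open in both libraries, 0.776% were higher and 0.666% lower by that much in Hyp-Pro over Norm-Pro, 0.730% and 1.51% in Hyp-Imm over Norm-Sen, 0.395% and 0.177% in Norm-Sen over Norm-Pro, and 1.18% and 1.01% in Hyp-Imm over Hyp-Pro. A count of 0 among 14 to 31 genes is therefore near the background. The exact binomial interval of each single ratio held 0, for Sdhc in Hyp-Pro over Norm-Pro from -2.29 to 0.21. Scaled by background, the median became 0.81 in Hyp-Imm over Norm-Sen and -0.40 in Norm-Sen over Norm-Pro. Under that scaling 5 of 17 genes were 2-fold or more higher in Hyp-Imm over Norm-Sen, Ndufa3, Ndufa11, Sdhc, Uqcrb and Uqcrc1, beside 36.4% of all genes. For Sdhc, Uqcrb and Uqcrc1 the peaks compared in that pair did not overlap. In Norm-Sen over Norm-Pro 3 of 31 were 2-fold or more lower, beside 3.91% of all genes. The sign of a shift common to all genes is thus set by the scaling.

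**Figure D4:**
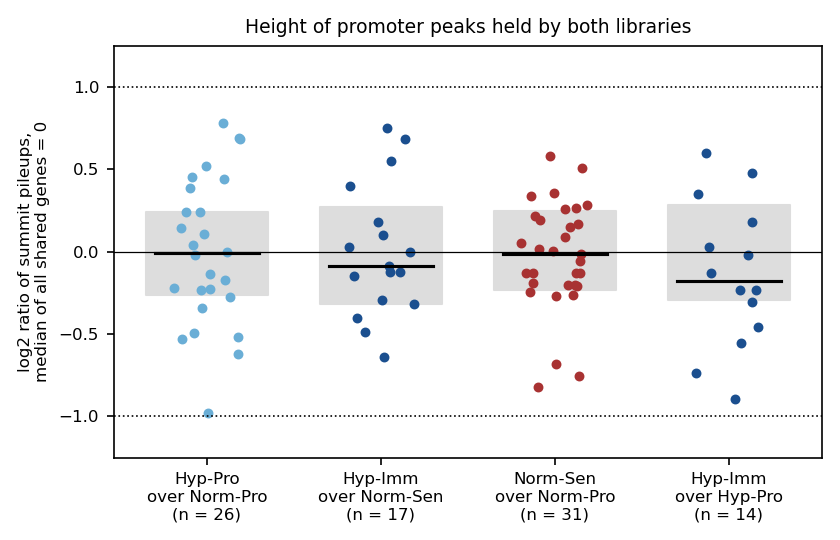
Log2 ratio of summit pileups (y axis), scaled so that the median of all genes open in both libraries is 0, for each complex I to III gene open in both libraries of a pair (points) in the 4 pairs (x axis); black lines are medians, grey boxes span the first to the third quartile of all genes, dotted lines a 2-fold difference. The points lie between -0.98 and 0.78 and the medians between -0.18 and -0.01. Each point compares the strongest peak of either library, and for some genes these peaks did not overlap.

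Summits lay close to start sites. The median distance from the nearest TSS was 122 bp in Hyp-Imm, 74 bp in Hyp-Pro, 51 bp in Norm-Sen and 35 bp in Norm-Pro, against 99, 94, 88 and 83 bp over all genes in the same order. Summits within 200 bp numbered 11 of 17 in Hyp-Imm (64.7%, beside 70.8% of all genes), 23 of 30 in Hyp-Pro (76.7%, beside 72.9%), 31 of 37 in Norm-Sen (83.8%, beside 73.5%) and 29 of 35 in Norm-Pro (82.9%, beside 75%). Summits farther than that were, among others, at Ndufa11 and Ndufa13, which have other genes' start sites within 1 kb, and at Uqcrc2 in Hyp-Imm, 676 bases upstream. Of genes open in both libraries of a pair, peaks overlapped at 19 of 26 in Hyp-Pro and Norm-Pro, 14 of 17 in Hyp-Imm and Norm-Sen, 27 of 31 in Norm-Sen and Norm-Pro and 12 of 14 in Hyp-Imm and Hyp-Pro. The overlap was not computed over all genes, so these counts have no background beside them.

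For 18 of the 41 genes a TSS of another protein-coding gene lay within 1 kb, so the peak cannot be given to one gene alone. Among these neighbours are Mrpl47 at Ndufb5 and Mrpl36 at Ndufs6, both for mitochondrial ribosomal proteins, Timm8b at Sdhd, for a chaperone of mitochondrial import, and Eef1b2 at Ndufs1, for a translation elongation factor.

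Tfcp2l1 ChIP-seq peaks lay near few of these genes, at shares near those of all genes. In immortalized MEFs in 3% oxygen, 4 of 41 genes had a peak within 100 kb (9.76%, interval 2.72 to 23.1, beside 6.71% of all genes), Cyc1, Ndufa2, Ndufs7 and Sdhc. In senescent MEFs in 20% oxygen, 3 had one (7.32%, 1.54 to 19.9, beside 4.80% of all genes), Ndufa2, Ndufs7 and Sdhc. Both intervals hold the share of all genes. The libraries had 612 and 393 peaks in that order, of which 125 (20.4%) and 165 (42.0%) lay on annotated tRNA genes.

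Ndufs7 was the one gene with a Tfcp2l1 peak at its promoter, and both libraries had it. The peak had a pileup of 33 and a -log10 q of 30.6 in immortalized MEFs with its summit 79 bases downstream of the first TSS, and 38 and 30.9 in senescent MEFs with its summit 33 bases downstream. By q value it stood at percentile 95.6 of the peaks in immortalized MEFs and 90.1 in senescent MEFs. A pair of tRNA genes lies there, n-TFgaa3, for phenylalanine, at chr10:80248964-80249036 on the minus strand and n-TNgtt7, for asparagine, at chr10:80249159-80249232 on the plus strand. The peak in senescent MEFs covers both, and that in immortalized MEFs covers n-TNgtt7 and part of n-TFgaa3. An ATAC-seq peak overlapped it in Hyp-Pro, Norm-Sen and Norm-Pro but not in Hyp-Imm. The 200 bases before the first TSS of Ndufs7 (chr10:80248921-80249120, GRCm38, plus strand) are shown with n-TFgaa3 in capitals, since the peak overlaps it.
Ndufs7: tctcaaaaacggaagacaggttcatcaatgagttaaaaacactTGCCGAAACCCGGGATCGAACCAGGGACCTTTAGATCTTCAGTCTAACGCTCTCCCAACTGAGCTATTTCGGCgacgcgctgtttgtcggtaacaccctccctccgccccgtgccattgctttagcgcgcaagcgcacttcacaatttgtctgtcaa

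The other peaks were distal. Around Sdhc 4 peaks in immortalized and 3 in senescent MEFs lay 39.1 to 76.1 kb from the TSS, and all of them lay on tRNA genes; the strongest had pileups of 23 in immortalized MEFs and 41 in senescent MEFs and were closer to Cfap126. The Ndufa2 peak, 57.4 kb away next to Zmat2, was shared, with 8 tags in immortalized and 27 in senescent MEFs; its overlap with tRNA genes was not analysed here. The Cyc1 peak, 39.7 kb away and closest to Oplah, was found in immortalized MEFs only, with 6 tags and a -log10 q of 2.85. With peaks on annotated tRNA genes left out, Ndufs7 and Sdhc had no peak within 100 kb in either library, whereas the Cyc1 peak lies on no annotated tRNA gene.

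**Figure D5:**
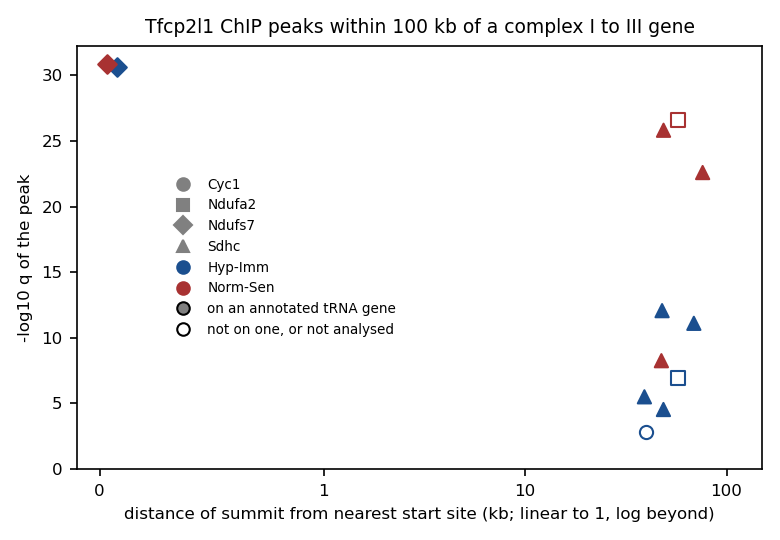
Tfcp2l1 ChIP-seq peaks within 100 kb of a complex I to III gene, by distance of the summit from the nearest TSS of that gene (x axis, kb, linear up to 1 and logarithmic beyond) and -log10 q (y axis), in immortalized MEFs in 3% oxygen (blue) and senescent MEFs in 20% oxygen (red); filled symbols lie on annotated tRNA genes. The Ndufs7 peaks stand at the TSS with -log10 q of 30.6 and 30.9, and all others lie 39.1 kb or more away.

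In 5 of 9 lists of linked genes Hyp-Imm alone had the fewest open promoters. Of the 6 other nuclear complex I subunits, 3 were open in Hyp-Imm, 3 in Hyp-Pro, 6 in Norm-Sen and 5 in Norm-Pro; Ndufab1, the mitochondrial acyl carrier protein, was open throughout with 14, 16, 30 and 25 tags. Of 3 other complex III subunits the counts were 2, 1, 2 and 2, with Uqcrh open throughout and Uqcr11 in none. Of 24 assembly factors of complexes I to III, 16 were open in Hyp-Imm (66.7%), 17 in Hyp-Pro (70.8%), 21 in Norm-Sen (87.5%) and 21 in Norm-Pro (87.5%). Bcs1l, which inserts the Rieske protein into complex III, had 15, 21, 28 and 23 tags, and Foxred1, a complex I assembly factor, 13, 20, 26 and 30.

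Complex IV was open at 6, 6, 6 and 8 of 10 genes in the order Hyp-Imm, Hyp-Pro, Norm-Sen and Norm-Pro, and ATP synthase at 6, 10, 12 and 12 of 15. Tricarboxylic acid cycle genes were open at 8, 13, 13 and 13 of 14, with Idh3a, Ogdh and Mdh2 among the 8 open throughout. Mitochondrial ribosomal protein genes were open at 16, 24, 28 and 30 of 40. Regulators of respiratory genes were open at 8, 9, 10 and 11 of 12. Tfam, which packages and transcribes mitochondrial DNA, had 17, 23, 17 and 31 tags, and Nrf1 12, 22, 22 and 24, whereas the coactivator Ppargc1a had no peak in any library.

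HIF-linked mitochondrial genes were open at the same 7 of 9 genes in all 4 libraries. Pdk1, the kinase that inactivates pyruvate dehydrogenase, had 12 tags in Hyp-Imm, 28 in Hyp-Pro, 19 in Norm-Sen and 26 in Norm-Pro. Bnip3, which marks mitochondria for removal, had 11, 13, 14 and 15, and Higd1a, which binds respiratory complexes, 10, 19, 30 and 27. Cox4i2, the complex IV subunit induced in low oxygen, and Ndufa4l2 had no promoter peak in any library. The counts of all these lists describe single libraries and are to be read beside the 34.2%, 48.1%, 51.6% and 53.4% of all genes open in the same order.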

How the data were processed

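For ATAC-seq the authors aligned paired reads to GRCm38 (mm10) with Bowtie2, removed distant pairs, corrected read starts for the offset of Tn5 and ran MACS2 on each library at an FDR of 0.05. ChIP-seq peaks came from Bowtie and MACS2 on Tn5-tagged immunoprecipitates, with q 0.01 in the file names. The sources used here give no build for those peaks, and their scaffold names are those of mm10. The deposited fold enrichment is the ratio of the summit pileup to local background, each plus 1. The deposited −log10 p and −log10 q values of the authors rank peaks within a library.

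Fold and −log10 p together gave a whole summit pileup for 100% of peaks (tolerance 0.0005 in −log10 p). A second whole solution existed for 0.580% of Hyp-Imm ATAC-seq peaks. The recovery was tested on simulated data. Genes and start sites were from GENCODE vM21, and 403 tRNA genes and the promoter bases from RefSeq on the same build. The strongest peak by q within 1 kb of a TSS stood for a gene. Shares carry exact Clopper-Pearson intervals at 95%, which cover counting error only, and a single pileup ratio carries an exact binomial one. The files give no read depth, and background pileup stood in for it.

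The 41 genes, the gene lists and the naming rule were chosen with earlier results of these data known, and the bands of pileup and the subset without neighbouring start sites after the peaks had been seen. Named with values were all genes with other patterns than the 2 most frequent, up to 8 missing in 1 library alone, the 6 highest and 3 lowest by mean rank among those open in all 4, and those with a ChIP-seq peak; Ndufa5, Ndufa13, Ndufb2, Ndufs1, Ndufs8 and Sdhd were added for their complexes. Alternatives covered the peak threshold, equal numbers of peaks, the window and start site, the overlap of peaks, the scaling, tRNA genes and the file names. Python 3.11.15, numpy 2.4.6, scipy 1.17.1, pandas 2.3.3 and matplotlib 3.10.9 were used.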

Additional observations from a re-analysis of the deposited data

Results flagged for a closer look

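Ndufb9 and Ndufb10, 2 supernumerary subunits of complex I, differed between the oxygen levels in opposite directions at passage 1 and in late culture. Ndufb9 had 13 tags in Hyp-Pro and no peak in Norm-Pro, and no peak in Hyp-Imm against 17 tags in Norm-Sen. The strongest peaks of Ndufb9 in Hyp-Pro and Norm-Sen did not overlap, and the TSS of Tatdn1 lies within 1 kb. Ndufb10 had 17 tags in Hyp-Pro and no peak in Norm-Pro, and no peak in Hyp-Imm against 14 tags in Norm-Sen. The Norm-Sen peak of Ndufb10 was weak, with a -log10 q of 2.68 at percentile 11.0 of that library. At a -log10 q of at least 5, or with equal numbers of peaks, it is not counted. Ndufb10 then has no peak in either late library. Scaled to the other library of each pair, the missing peaks would have had 15.4 tags in Norm-Pro and 7.93 in Hyp-Imm for Ndufb9, and 20.1 and 6.53 for Ndufb10. Peaks in Hyp-Pro and Norm-Sen alone were found at 2.1% of all genes, a share that also counts genes open in no library. By the file names these libraries are the 2 at passage 1, so both genes are then open at both oxygen levels at passage 1 and in neither late library, and no opposite directions are left. With 1 library per condition the difference between passage 1 and late culture was not tested.

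Peaks on the mitochondrial genome lay outside the comparisons of nuclear genes. Of 8 mitochondrially encoded genes for complex I and III subunits, 6 overlapped an ATAC-seq peak in Hyp-Imm, 6 in Hyp-Pro, 6 in Norm-Sen and 6 in Norm-Pro. They were mt-Nd1, mt-Nd2, mt-Nd4, mt-Nd5, mt-Nd6 and mt-Cytb, while mt-Nd3 and mt-Nd4l had no peak in any library. The mitochondrial genome held 6 peaks in Hyp-Imm, 6 in Hyp-Pro, 14 in Norm-Sen and 9 in Norm-Pro. No control library exists for them, and copy number was not measured.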

How the results depend on the processing

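With 1 library per condition, a gap cannot be told apart from sampling depth or from differences between cultures. No paired analysis was possible because each condition has 1 library and no test was made. Of 98 values under other settings, 72 stayed within 1.5 times the main count or within the interval of the median, and 26 moved, as follows.

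Open genes at a −log10 q of at least 5 numbered 4 in Hyp-Imm and 21 in Norm-Pro. At that threshold 9 genes were open in Hyp-Pro and not in Norm-Pro (40.9%, beside 20.5% of all genes), 10 in Norm-Sen and not in Norm-Pro (38.5%, beside 20.5%), and 2 in Hyp-Imm and not in Norm-Sen (50%, beside 16%). With equal numbers of peaks 2 genes, and not 0, were open in Hyp-Imm and not in Norm-Sen (11.8%, beside 19.7% of all genes). When only overlapping peaks counted as shared, 11 genes were open in Hyp-Pro and not in Norm-Pro and 16 the other way, 10 in Norm-Sen and not in Norm-Pro and 8 the other way, 3 in Hyp-Imm and not in Norm-Sen, and 5 in Hyp-Imm and not in Hyp-Pro. This setting was not run over all genes, so its counts cannot be set beside a background.

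With conditions by the file names, 9 genes were open in Hyp-Pro and not in Norm-Pro and 2 the other way, 3 in Norm-Sen and not in Norm-Pro and 16 the other way, 20 in Hyp-Imm and not in Norm-Sen and 2 the other way, and 6 in Hyp-Pro and not in Hyp-Imm.

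Scaled by background, the median log2 ratio was 0.81 in Hyp-Imm over Norm-Sen and -0.40 in Norm-Sen over Norm-Pro, and over genes open in all 4 libraries Norm-Sen over Norm-Pro gave -0.20. Within 10 kb of a TSS 1 gene had a ChIP-seq peak in each library, and without peaks on annotated tRNA genes 2 had one in immortalized and 1 in senescent MEFs, Ndufa2 included, whose peak was not analysed for tRNA genes. These ChIP-seq counts have no share of all genes beside them, so they cannot be read against a background. Beyond the construction of each setting, the cause of these shifts was not tested.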
